A study of Arabidopsis thaliana with 8 samples.

Results

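The account concerns ExTQ003, 1 of 8 Arabidopsis thaliana strains whose leaf RNA was measured with 1 array each, set against the 7 other strains. ExTQ003 was singled out because its salicylic acid defence genes were low, so those genes are given as a description and carry no test. The loci described are the gene loci well above background on all 8 arrays, outside a pair of chromosome 5 stretches (AT5G11610 to AT5G14370 and AT5G39670 to AT5G42840) that an earlier look at the same arrays had marked as lower in this strain. This rule left 18489 of 25638 measured loci, after 426 loci inside the stretches were set aside. The strains set against ExTQ003 were ExTQ002, ExTQ013, ExTQ015, ExTQ005, ExTQ016, ExTQ018 and ExTQ019. They are different strains and not replicates of a condition.

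All 8 strains are diploid progeny of plants that carried the gene for MseI, a restriction enzyme that cuts DNA, and that were held for 3 h at 33 °C to activate it. Ex-TAQing is this way of cutting chromosomes inside living plants so that the cell rejoins them. The progeny grew for 4 weeks with 16 h of light and 8 h of dark on MS medium with 1% sucrose and 0.8% agar, and 200 ng of RNA was labelled with Cy3. Untreated plants were not analysed here, so every comparison is between descendants of treated plants. How many plants went into a sample was not given in the sources used here. Strain numbers differ between the labels' fields: the array titled ExTQ003 is described as ExTQ004, and the array titled ExTQ015 is described as ExTQ003. Titles were used throughout, and every statement on ExTQ003 is on the array with that title. The labels' molecule field names genomic DNA, although the protocols describe total RNA.

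As background, salicylic acid is a plant hormone that is made in the chloroplast after pathogen attack, largely through isochorismate synthase, and is read by receptors of the NPR family. The receptors and their partner transcription factors switch on secreted antimicrobial proteins, the pathogenesis-related proteins, and many receptor kinases. Jasmonate, made from membrane lipids, runs a separate defence branch against chewing insects and wounding, and with ethylene another against fungi that feed on dead tissue.

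Levels are log2 of the processed intensity minus the 75th percentile of the same array, so 1 unit is a 2-fold difference and 0 is the level of a probe brighter than 75 of 100. Probes well above background made up 63.1% of probes on the ExTQ003 array, against 61.3% to 67.7% on the other 7. The ExTQ003 array had the lowest 75th percentile, 10.84 on the log2 scale, against 10.92 to 11.31. Repeated spots of a probe varied with a median SD of 0.058 on the ExTQ003 array, against 0.054 to 0.082 on the others (23 probes printed at least 5 times). ExTQ003 shared slide 1 with ExTQ002, ExTQ013 and ExTQ015, and the other 4 arrays lay on slide 2. The leaf label was checked against markers. All 38 photosynthesis genes were well above background on all arrays, and the light-harvesting gene LHCB6 read 7.49 in ExTQ003, against 6.94 to 7.50 in the others. Of 12 root markers 4 were measured on all arrays, and the root hair gene EXPA7 and the iron transporter gene IRT1 were not among them. The 4 were PYK10, SCR, SHR and MYB66, at 0.71, 0.82, 0.31 and −6.22 in ExTQ003. PYK10 read −0.295 to 3.298 in the others. Among floral genes SEP3 read 0.895 and AG −1.78 in ExTQ003. Whether root or flower tissue was present was not tested.

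The filter on background matters for this array. Another 556 loci were above background on 7 of the 8 arrays, 67 of which failed on ExTQ003, and their median level in ExTQ003 was −5.78. Loci that passed had a median level of −0.10 in ExTQ003 and a lowest level of −7.34. At the stretch edges, AT5G11600 just outside differed by −0.01 and AT5G11610 just inside by −0.24, and at the other end AT5G14370 just inside differed by −0.28 and AGP6 just outside by 0.04. For the second stretch, CDF2 just outside differed by 0.01, AT5G39670 just inside by −2.56, AT5G42830 just inside by −1.74 and AT5G42850 just outside by −0.18. Each value is the ExTQ003 level minus the mean of the others, and these edges are a description of the rule.

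ExTQ003 had more loci below the range of the other strains than above it. A locus was counted when ExTQ003 lay outside all 7 others and at least 1 log2 unit from their mean, and the counts of list members below or above all others use the same rule, so a gene can be the lowest or highest strain by less and not be counted. By this count 314 loci lay below (1.7% of 18489) and 128 above (0.692%). The differences below had a median of −1.64 and reached −6.22, with 109 loci at least 2 and 28 at least 3 below the mean. Those above had a median of 1.21 and reached 3.94, with 15 loci at least 2 and 2 at least 3 above it. Over all 18489 loci the median difference was 0.05, with 7988 loci lower than the mean of the others and 10501 higher. Later counts of list members are to be read beside these numbers over all loci.

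**Figure D1:**
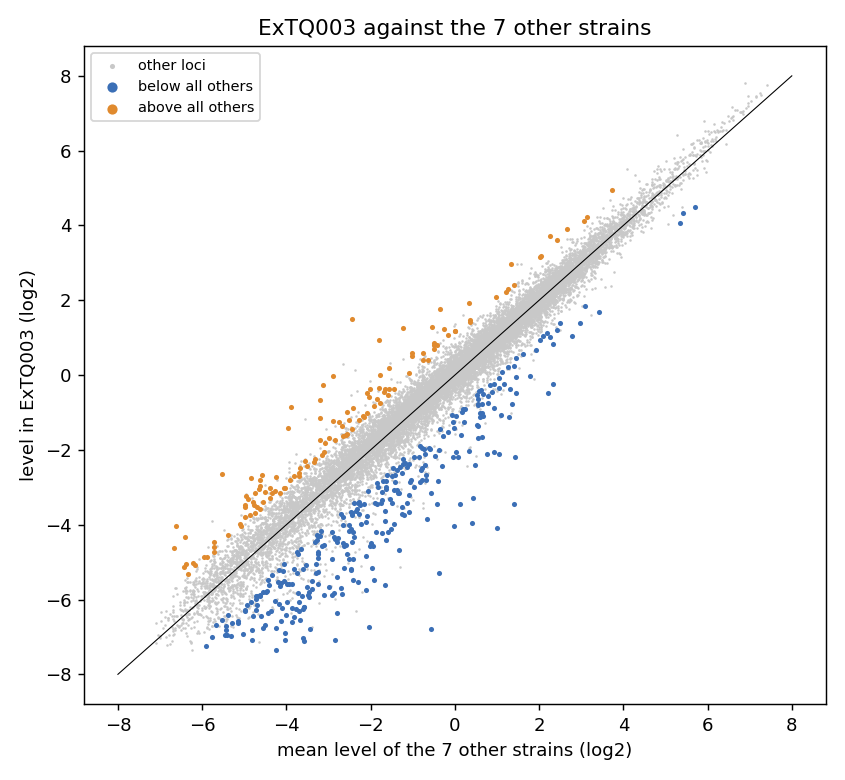
Level in ExTQ003 (y axis, log2) against the mean level of the 7 other strains (x axis, log2) for 18489 loci, 1 point each, with the line of equal level. The 314 loci below all others (blue) reach further from the line than the 128 loci above all others (orange).

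Limma, a linear model that borrows the spread of all genes, called 0 of these loci (0%) at an adjusted p under 0.05 and a difference of at least 1, in a fit of 22376 loci with Benjamini-Hochberg adjustment. At an unadjusted p under 0.05 there were 207 loci, 108 lower and 99 higher in ExTQ003, and the smallest adjusted p was 0.242. The spread in this fit comes from the 7 others, and the lone array is assumed to vary as they do. An exact permutation test of 1 array against 7 cannot give a p below 1 in 8. The values that follow are therefore descriptions of single arrays, and none passed a test.

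The number of loci outside the others was not large for this series. By the same count ExTQ019 had 1995 loci below and 1634 above, ExTQ002 had 1360 and 514, ExTQ016 had 466 and 462, and ExTQ005 had 190 and 185. ExTQ018 had 147 below and 338 above, ExTQ015 had 147 and 60, and ExTQ013 had 60 and 187. Over the 18489 loci the levels of ExTQ003 correlated with those of ExTQ005 at 0.99, of ExTQ015 at 0.984 and of ExTQ018 at 0.981, and least with ExTQ019 at 0.89 (Pearson's r across genes, which are not independent). The strains next to ExTQ003 were also few. Among the 314 loci below, the next lowest strain was ExTQ016 for 110, ExTQ005 for 107, ExTQ015 for 52 and ExTQ018 for 33, and the highest strain was ExTQ019 for 199 and ExTQ002 for 72. The means of the others in these loci thus carry the high levels of ExTQ019 and ExTQ002, and the gap to the nearest strain is given beside them.

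**Figure D2:**
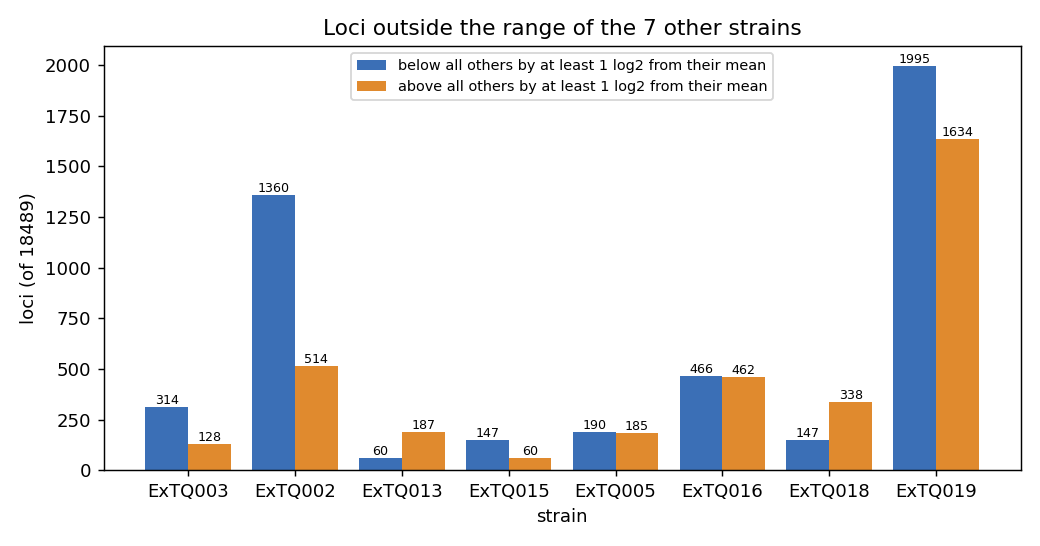
Number of loci, of 18489, at which each strain (x axis) lay below (blue) or above (orange) all 7 others and at least 1 log2 unit from their mean. ExTQ003 had 314 below and 128 above, and ExTQ019 had the most in both directions.

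Against the 3 other arrays of its own slide, ExTQ003 had 923 loci below and 864 above, of which 292 and 103 were also counted against all 7. With slide as a term in the fit, 345 lay below and 296 above. Loci below and above were thus closer in number when the differences were taken from arrays of the same slide. Lying outside 3 arrays is easier than outside 7, so the same-slide counts are not comparable in size with those against all 7. Signal over background also moved with the count. Of the 314 loci below, 35 (11.1%) lay within 1 log2 unit of the lowest level read well above background on the ExTQ003 array, which was −7.37, against 151 of 18489 (0.817%) over all loci. Its part in the count was not tested.

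The salicylic acid output genes were low in ExTQ003, as its selection implies. Of 24 genes in the list, 21 were measured, and all 21 lay below the mean of the others, with a median difference of −2.18 (range −5.09 to −0.93). For 13 of them ExTQ003 was below all 7 others by the count above and for 0 above, beside 1.7% and 0.692% of all loci. Against the same slide the median was −2.97. PR1, the classical marker of this branch, WRKY38 and WRKY62 were not above background on all arrays and are not described.

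BGL2, a secreted glucanase that attacks fungal walls and is also called PR2, read −4.09 in ExTQ003, against a lowest of −3.19 in ExTQ016, a median of −0.07 and a highest of 5.58 in ExTQ019. The mean of the others was 1.01 ± 3.05 (SD, n = 7), which put ExTQ003 5.09 ± 2.94 lower (SE of the limma fit), a 34.1-fold difference. PR5, a thaumatin-like protein, read −3.44 in ExTQ003, against −2.18, −0.83 and 5.12 as lowest, median and highest of the others. ExTQ003 was the lowest strain for both, by 0.90 and 1.26, while the others spread over more than 7 log2 units. Against the same slide BGL2 differed by −6.16.

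LURP1, named for its rise in response to an oomycete, read −3.44 in ExTQ003, against −2.08 in ExTQ016, the next lowest, a median of 0.78 and 5.57 in ExTQ019. Its difference from the mean was −4.84, and a second probe gave −5.81. PCC1, a gene controlled by pathogens and the clock, read −3.94 in ExTQ003, against −2.28, −0.30 and 4.69. Both genes stood more than 1 log2 unit from the nearest strain.

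Several other genes of the list stood less than 1 log2 unit from the nearest strain, or inside the range of the others. WRKY54, a salicylic acid dependent regulator, read −5.17 in ExTQ003, against −4.36 in ExTQ016 and 1.97 in ExTQ019, while its relative WRKY70 read 1.19 in ExTQ003, above 0.24 in ExTQ016. WAK1, a wall-associated kinase, read −0.78 in ExTQ003, against −0.38, 1.12 and 4.11, and DMR6, which hydroxylates salicylic acid, read −1.07, against −0.99, 0.58 and 4.50. NIMIN1, a partner of NPR1, differed least, at −4.22 in ExTQ003 against −4.87 to 0.42, well inside the range of the others. ExTQ003 was singled out as the "lowest defence state" of the series, a phrase that is not in the labels. By the count above this held gene by gene for 13 of 21 and not for the list as a whole. Centred on the mean of all 8 strains, the list's median was −1.91 in ExTQ003, against −2.01 in ExTQ016, the lowest, and 3.66 in ExTQ019, the highest.

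**Figure D3:**
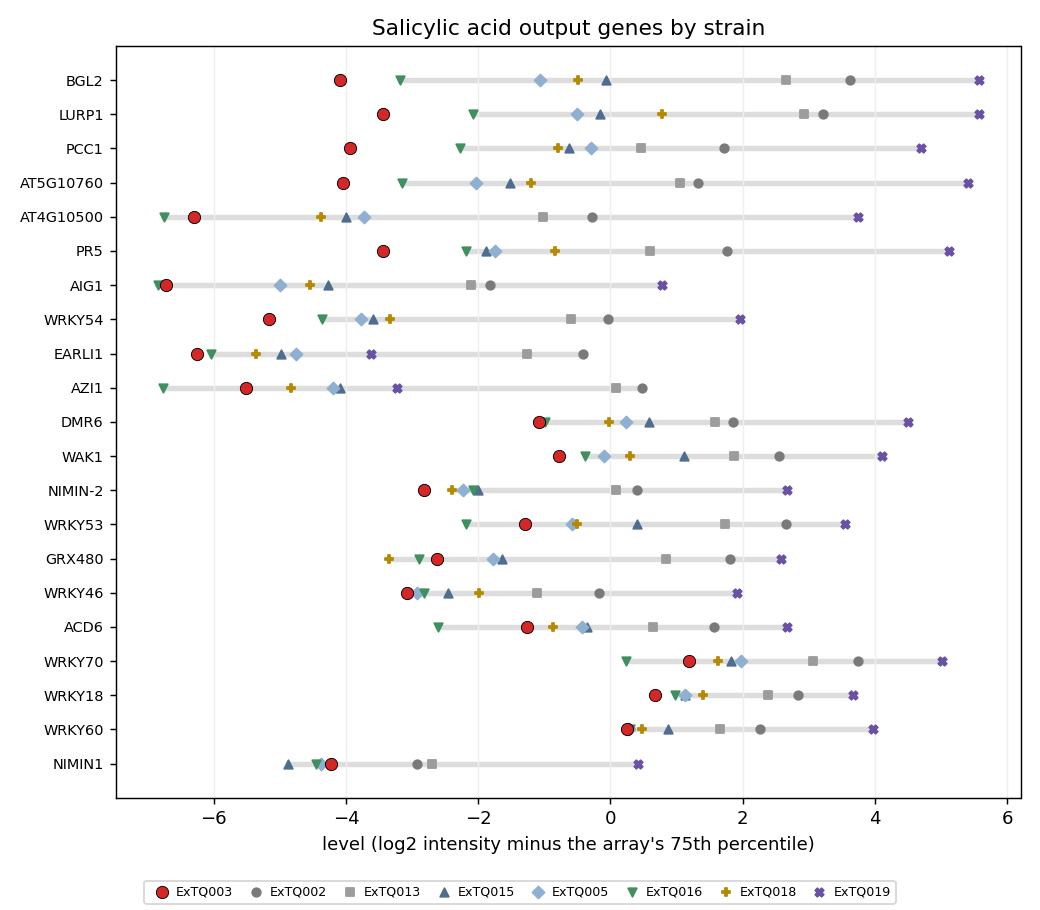
Level (x axis, log2 intensity minus the array's 75th percentile) of the 21 measured salicylic acid output genes (rows), 1 point per strain, with a grey bar over the range of the 7 others. ExTQ003 (large red points) is among the lowest 4 strains in every row, and ExTQ016 (green triangles) is lower for several genes, such as AT4G10500 and WRKY70.

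The genes that make and sense salicylic acid were also lower, by less. Of 18 genes of the salicylic and pipecolic acid pathway, 14 were measured, and all 14 were below the mean of the others. The median difference was −0.60, or −0.92 against the same slide. By the count, 4 were below all others, beside 1.7% of all loci. The low level was not particular to ExTQ003. Centred on the mean of all strains, the list's median was −0.523 in ExTQ003, −0.582 in ExTQ016, −0.516 in ExTQ018 and −0.449 in ExTQ005. It was −0.303 in ExTQ015, 0.29 in ExTQ013, 0.506 in ExTQ002 and 1.757 in ExTQ019, the highest. SARD1, a transcription factor that activates isochorismate synthase, read −5.53 in ExTQ003, against −4.71, −3.45 and 1.47. EDS5, the chloroplast exporter of salicylic acid, read −2.80 in ExTQ003, against a lowest of −2.08 and a median of −1.25, with ExTQ019 the highest strain.

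EDS16, the isochorismate synthase itself, read −1.95 in ExTQ003, against −1.62, −1.09 and 1.79, and its probes agreed, at −1.34 and −1.41 from the mean. UGT76B1, a glucosyltransferase that inactivates salicylic acid and related signals, read −4.82 in ExTQ003, against −3.81, −2.32 and 0.61. These 4 genes were the ones counted. ExTQ003 was also the lowest strain for the receptors NPR1 and NPR3, by 0.007 and 0.055, less than 1 log2 unit from the mean. The receptors NPR1, NPR3 and NPR4 differed by −0.52, −0.38 and −0.32, and the upstream lipase-like regulators EDS1 and PAD4 by −0.54 and −1.27, with ExTQ016 below ExTQ003 for both. PBS3 lies inside a stretch left out, and ALD1, FMO1 and BSMT1 were not above background on all arrays.

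Surface immune receptors and their outputs were mixed. Of 22 genes of pattern-triggered immunity 21 were measured, 17 below and 4 above the mean of the others, with a median of −0.46 and 3 below all others. The shares over all loci were 7988 of 18489 below the mean and 1.7% below all others. YLS9, a late defence output, read −5.48 in ExTQ003, against −4.45, −1.66 and 1.31. The flagellin receptor FLS2 differed by 0.06 and its co-receptor BAK1 by −0.02. Among the cysteine-rich receptor kinases 10 of 17 were measured with a median of −1.75. Centred on the mean of all strains, the list's median was −1.535 in ExTQ003 and −2.224 in ExTQ016, the lowest. ExTQ016 was below ExTQ003 for CRK4, CRK15, CRK14 and ARCK1. CRK5 and CRK36 were below all others, at −5.86 and −6.55 in ExTQ003, against −5.66 and −6.39 in ExTQ016. The gaps of 0.20 and 0.16 to ExTQ016 were small beside the SD of 2.55 and 2.28 over the others. With normexp correction, run after high local backgrounds were replaced, these dim genes differed less. CRK5 differed by −1.89, against −3.19 here, and CRK36 by −1.36, against −2.88. YLS9 differed by −2.30, against −3.57, and SARD1 of the pathway list by −2.20, against −3.24. This setting, called replaced backgrounds below, adds an offset of 50 to all spots. No locus counted outside the others is read by a spot whose background was replaced, so these genes kept their own local backgrounds. What made the differences smaller was not tested. All 18 intracellular NLR receptors were measured, 15 below and 3 above the mean, with a median of −0.48, and ADR1, a helper receptor, was below all others at −0.77, against −0.36 to 2.47. Of 16 genes of ER chaperones and secretion, 15 were measured with a median of −0.36. None lay outside all others by the count, although ExTQ003 was the lowest strain for CNX1, a chaperone of glycoproteins, at 1.87, against 2.04 to 2.69.

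The loci furthest from the nearest strain were mostly not in the salicylic acid list. Many still ran like BGL2 over the 8 strains, ExTQ003 among them. Pearson's r with BGL2 lay between 0.855 (LAS1) and 0.982 (AT3G28580) for these and for TAT3, MDHAR, MSRB8, NAC058 and AT4G18250. It was lower for AT4G25210 (0.476), PDF1.2 (0.339) and RAP2.6 (0.114). All these loci were picked for a low level in ExTQ003, where BGL2 was also lowest. That array entered r, so a part of the high values follows from the choice. TAT3, a jasmonate-inducible tyrosine aminotransferase, had the largest gap of all, 3.56. It read −6.80 in ExTQ003, against 2.32 in ExTQ002, 0.83 in ExTQ013, −1.26 in ExTQ015, −2.75 in ExTQ005, −3.24 in ExTQ016, −2.80 in ExTQ018 and 2.86 in ExTQ019. The difference from the mean of the others was −6.22 ± 2.47 (SE), or 74.7-fold, and −7.43 against the same slide. The level was close to the array's lowest readable level, and after normexp background correction with high local backgrounds replaced the difference was −3.83.

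MDHAR, a monodehydroascorbate reductase that recycles ascorbate, read −7.09 in ExTQ003, against −4.63, −3.68 and −0.50 as lowest, median and highest of the others. MSRB8, which repairs oxidised methionine, read −6.74 in ExTQ003, against −4.59, −2.37 and 1.94. Both stood clear of every other strain, by 2.46 and 2.15. With the replaced backgrounds their differences were −2.19 and −2.78, against −4.25 and −4.70 here. LAS1, a lanosterol synthase, read −4.58 in ExTQ003, against −3.09, −1.78 and −0.93, and the NAC factor NAC058 and the ERF factor RAP2.6 differed by −2.62 and −2.64. AT3G28580 differed by −3.03 and AT4G18250 by −3.54. With the replaced backgrounds the differences of LAS1, NAC058, RAP2.6 and AT4G18250 were −1.70, −1.14, −1.25 and −1.63.

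AT4G25210 was unlike the rest of these loci, because the 7 others were close together. It read 1.05 in ExTQ003, against 2.57 in ExTQ002, 2.76 in ExTQ013, 2.85 in ExTQ015, 2.99 in ExTQ005, 2.72 in ExTQ016, 2.81 in ExTQ018 and 2.81 in ExTQ019. The mean of the others was 2.79 ± 0.13 (SD, n = 7), and the difference was −1.74 ± 0.18 (SE), or 3.33-fold lower, with the smallest limma adjusted p, 0.242. Its difference was −1.68 against the same slide, −1.67 with replaced backgrounds and −1.64 in the deposited series values. The next locus by name, HSP23.6-MITO, a mitochondrial small heat shock protein, was also below all others, at −6.76 in ExTQ003 against −6.38 to −1.60. Its difference was −2.22 here, −0.94 with replaced backgrounds and −1.04 in the deposited series values.

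**Figure D4:**
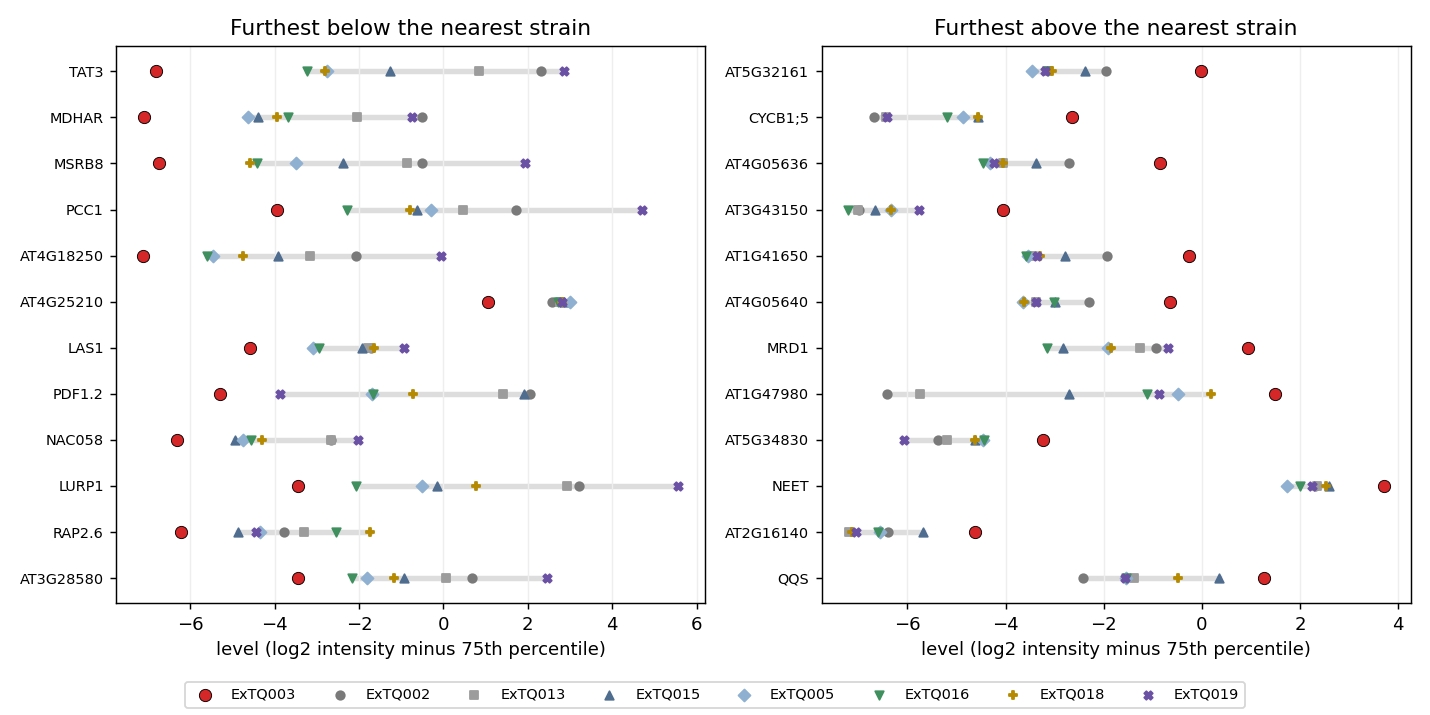
Level (x axis, log2 intensity minus the 75th percentile) of the 12 loci with the largest gap below (left) and above (right) the nearest other strain, 1 point per strain and a grey bar over the range of the 7 others. ExTQ003 (red) lies outside every bar, by 3.56 for TAT3 and by 1.93 for AT5G32161.

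Jasmonate genes were lower as well, in part of the pathway. Of 26 genes of the jasmonate and wounding list 24 were measured, 18 below and 6 above the mean of the others, with a median of −0.81 and 6 below all others. Over all loci, 7988 of 18489 lay below the mean and 1.7% below all others. LOX2, a chloroplast lipoxygenase that starts jasmonate synthesis in leaves, read 4.33 in ExTQ003, against 4.72, 5.33 and 6.03, and AOC2, an allene oxide cyclase later in the same synthesis, read −1.43, against −1.03, 0.03 and 0.93. LOX4 and the turnover enzyme CYP94B3 were below all others too, by −1.85 and −1.60 from the mean, as was the repressor JAZ8 by −1.47. With replaced backgrounds LOX4 differed by −1.28, CYP94B3 by −1.21 and JAZ8 by −0.74, which for JAZ8 is under 1 log2 unit.

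The storage proteins VSP1 and VSP2, late jasmonate outputs of leaves, were not low: they differed by 0.71 and 0.54. Centred on all 8 strains, this list placed ExTQ003 lowest of the 8, at −0.70, against −0.20 in ExTQ016 and 0.49 in ExTQ002. Against the same slide its median was −0.65.

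In the jasmonate-ethylene list all 16 genes were measured, 14 below and 2 above the mean, with a median of −0.62, or −0.95 against the same slide. Centred on the mean of all strains, the list's median was −0.538 in ExTQ003, above −0.824 in ExTQ016 and −0.797 in ExTQ019. It was highest in ExTQ002 and ExTQ013, at 1.13 and 0.842, and both lay on the slide of ExTQ003. PDF1.2, an antifungal defensin, read −5.30 in ExTQ003, against −3.87 in ExTQ019, a median of −0.71 and 2.04 in ExTQ002. PDF1.2 thus ordered the strains in another way from BGL2, since ExTQ019 was its next lowest and the highest for BGL2. Its difference was −4.94 against all others and −7.09 against the same slide. PR4, a chitin-binding protein, read 4.49 in ExTQ003, against 4.77, 5.20 and 7.27, and the regulators ORA59 and ERF1 differed by −0.47 and −0.93 inside the range of the others. PDF1.2b and PDF1.3 are close copies of PDF1.2, so their probes may read the same transcripts, and ExTQ003 was not the lowest strain for either.

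The camalexin and indole glucosinolate list had 15 of 17 genes measured, 14 below and 1 above the mean, with a median of −0.56. Of all 18489 loci, 7988 lay below the mean. Centred on the mean of all strains, the list's median was −0.491 in ExTQ003 and −0.612 in ExTQ016, the lowest. By the count, 3 genes were below all others, PAD3, GSTF6 and CYP71A12, beside 1.7% of all loci. PAD3, the last enzyme of camalexin synthesis, read −3.30 in ExTQ003, against −2.05, 1.24 and 2.56, a gap of 1.25. GSTF6, a glutathione transferase of the same pathway, read −0.49, against 0.60, 1.92 and 3.88, and CYP71A12 read −5.80, against −5.44, −3.21 and −0.55. The difference of CYP71A12 was −2.34 here and −1.43 with replaced backgrounds. Aliphatic glucosinolate genes lay on the other side, with 12 of 15 measured genes above the mean and a median of 0.29. None of them reached the count of loci above all others, and BAT5, a transporter of their precursors into the chloroplast, read 1.72 in ExTQ003, against 0.40, 1.23 and 1.32.

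Among the 128 loci above all others, several of those furthest from the nearest strain were pseudogenes by the reference annotation. Pseudogenes made up 5 of the 11 loci with a gap of at least 1 (45.5%) and 6 of the 128 (4.69%), against 1 of the 314 loci below (0.318%) and 32 of all 18489 (0.173%). By the same count of loci above all others, ExTQ019 had 4 pseudogenes, ExTQ016 had 2 and the other 5 strains 0. No test was made of these shares, since the loci were picked by the same levels.

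AT5G32161 read −0.03 in ExTQ003, against −1.96 in ExTQ002, −3.17 in ExTQ013, −2.38 in ExTQ015, −3.46 in ExTQ005, −3.13 in ExTQ016, −3.05 in ExTQ018 and −3.19 in ExTQ019. AT4G05636 read −0.86 in ExTQ003, against −4.46, −4.04 and −2.71 as lowest, median and highest of the others, and its neighbour by name AT4G05640 read −0.66, against −3.64, −3.38 and −2.29. AT1G41650 read −0.25 in ExTQ003, against −3.58, −3.35 and −1.93. In all 4 the 7 others kept within 2 log2 units of each other, ExTQ002 was the next highest, and ExTQ003 stood 2.54 to 3.02 above their mean.

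Over the 7 other strains these 4 loci ran together, with Pearson's r from 0.80 to 0.98 for the 6 pairs (n = 7 strains, which share their arrays). The other 28 pseudogenes had a median r of 0.03 between pairs. The files used here hold no probe sequences, so whether the 4 probes read copies of the same element is uncertain. Their differences kept their size with replaced backgrounds, from 2.30 to 2.57, and against the same slide, from 2.24 to 2.52.

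The remaining loci furthest above were of several kinds. CYCB1;5, of the B-type cyclin family, read −2.65 in ExTQ003, against −6.68, −5.19 and −4.56. Its difference was 2.88 here, 1.81 with replaced backgrounds and 1.55 in the deposited series values. MRD1 read 0.94, against −3.15, −1.85 and −0.69, and QQS, a gene specific to this species that affects starch content, read 1.26, against −2.41, −1.54 and 0.35. NEET, an iron-sulfur cluster protein of organelles, read 3.71 in ExTQ003, against 1.73, 2.31 and 2.59. AT1G47980 had the largest difference from the mean, 3.94, with 1.49 in ExTQ003, against −6.43 in ExTQ002 and 0.18 in ExTQ018. The dim loci AT3G43150, AT2G16140 and AT5G34830 differed by 2.56, 2.04 and 1.73, and by 1.13, 0.56 and 0.93 in the deposited series values.

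Clock and mitosis genes mostly lay above the mean of the others in ExTQ003, and the direction for photosynthesis genes depended on the scaling. In the photosynthesis list 34 of 38 genes were above the mean of the others and 4 below, with a median of 0.22 beside 0.05 over all loci, and 0 met the count outside all others. That median was 0.01 with quantile normalization and −0.05 in the deposited series values. CAB2, a light-harvesting protein, read 7.16 in ExTQ003, against 6.03, 6.74 and 6.97, and RBCS1A, the small subunit of the carbon-fixing enzyme, differed by 0.30. In the circadian clock list 19 of 23 genes were above the mean, with a median of 0.40, and 10501 of all 18489 loci were also above it. From the mean of all 8 strains, the list's median was 0.35 in ExTQ003, 0.30 in ExTQ005 and −0.54 in ExTQ019, the lowest. TOC1 and PRR7, pseudo-response regulators that repress morning genes, read 1.71 and 2.85, against at most 1.67 and 2.78, while the morning factor LHY differed by −0.53. In the mitosis list 18 of 19 were above the mean with a median of 0.47, or 0.90 against the same slide. CDC20.1, an activator of chromosome separation, read 0.32 in ExTQ003, against −2.17, −0.26 and −0.12. ExTQ002 was the lowest strain of this list, at −1.28 from the mean of all 8, against 0.41 in ExTQ003. Other strains were alike, with ExTQ005 the highest at 0.42, ExTQ016 at 0.38 and ExTQ018 at 0.35.

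Flowering genes were measured in part, because many were off in some strains. Of 19 flowering time genes 14 were measured, 13 above and 1 below the mean, with a median of 0.46, or 0.70 against the same slide, and AGL20, which promotes flowering, read 4.42 in ExTQ003, against 2.77, 3.91 and 4.31. FT, the mobile flowering signal, was the member below, at −1.78, against −4.77, −0.86 and 1.58. Floral organ identity genes were all above the mean in the 9 of 15 measured, with a median of 0.76, or 1.97 against the same slide, but ExTQ018 and ExTQ016 had higher list medians, 1.75 and 1.57 from the mean of all 8, against 0.67 in ExTQ003.

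Anther genes gave the largest list median above, 2.39, over only 5 of 15 members, since AMS, MS1, MS2 and 7 more were not above background on all arrays. A member passed only if it was readable in every strain, so the median does not stand for the list. CYP704B1, a fatty acid hydroxylase of pollen wall synthesis, read −1.43 in ExTQ003, against −6.37, −4.09 and −1.67, and LAP6, a polyketide synthase of the same pathway, read 0.40, against −1.45, −0.80 and 0.18. LAP5, its partner enzyme, read 0.14 in ExTQ003 and 0.49 in ExTQ018, and MEE48 read −1.17 and −1.10, so ExTQ018 passed ExTQ003 there. The difference of CYP704B1 was 2.54 here and 1.87 with replaced backgrounds. Whether flower tissue was present in the samples was not tested. Fewer cells of a type and less RNA per cell cannot be told apart in these samples.

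**Figure D5:**
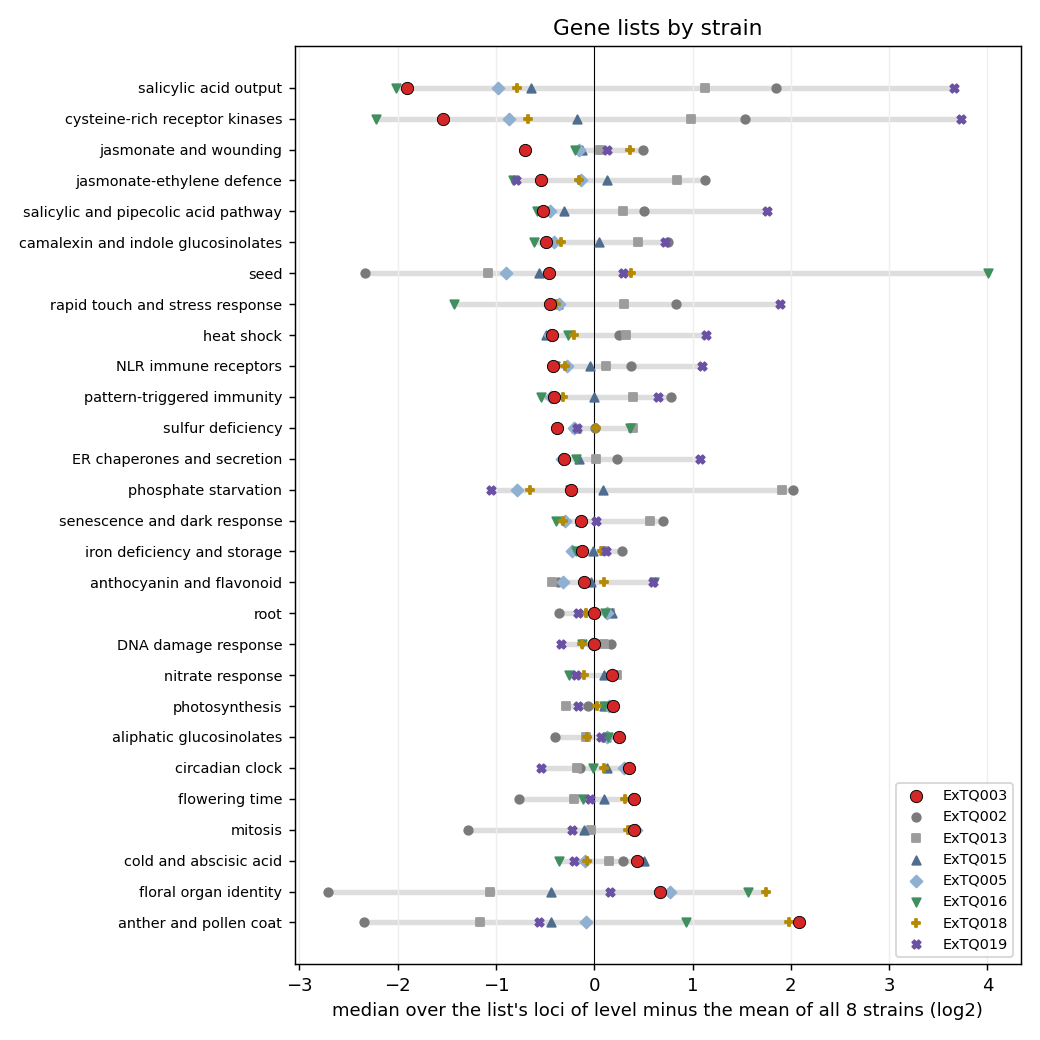
Median over the measured loci of each of 28 gene lists (rows) of the level minus the mean of all 8 strains (x axis, log2), 1 point per strain and a grey bar over the range of the 7 others. ExTQ003 (red) is second lowest for salicylic acid output at −1.91, lowest for jasmonate and wounding at −0.70 and highest for anther and pollen coat at 2.09.

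Cold and abscisic acid genes had 17 of 20 measured members above the mean, with a median of 0.50, or 0.23 against the same slide, and NCED3, which makes the abscisic acid precursor, read −0.34 in ExTQ003, against −3.71, −1.36 and −0.73. Its difference was 1.46 against all others and 0.79 against the same slide. Heat shock genes had 7 below and 4 above with a median of −0.49, or −0.32 against the same slide, and HSP90.1 read 0.46 in ExTQ003, against 0.73, 1.06 and 2.94. The DNA damage list, which bears on the enzyme used to make the strains, had 8 of 17 below and 9 above the mean with a median of 0.00, or −0.13 against the same slide, and 0 were counted outside all others, where the count asks for at least 1 log2 unit.

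Rapid touch and stress genes had a median of −0.51, or −1.02 against the same slide, over all 15 genes, 11 below and 4 above, and CAF1a, a deadenylase, lay 0.02 below the nearest strain. Senescence genes were split 10 below and 7 above with a median of −0.16, or −0.63 against the same slide, and SAG13, an alcohol dehydrogenase of ageing leaves, read −2.12 in ExTQ003, against −1.50, 0.22 and 3.90, with DIN2, a dark-induced glucosidase, at 1.01, against 1.63, 1.81 and 3.24. Phosphate starvation genes had 15 of 24 below and 9 above the mean, a median of −0.27, and 1 below all others. That gene, RNS1, a secreted ribonuclease, read −1.37 in ExTQ003, against −0.92, −0.06 and 2.77. The phosphate median was −1.79 against the same slide, where ExTQ002 and ExTQ013 were the highest strains of the series, at 2.02 and 1.92 from the mean of all 8.

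The nutrient lists had few loci outside the others. Sulfur deficiency genes had a median of −0.43 with SULTR1;2, a root sulfate transporter, 0.08 below the nearest strain. Nitrate response genes had a median of 0.21, −0.04 against the same slide, with NRT1.8, a nitrate transporter, at −4.19 in ExTQ003, against −3.76, −2.67 and −1.08. Iron genes had a median of −0.14 with 0 counted, and OPT3, an iron transporter of the phloem, was lowest in ExTQ003 at 0.80, against 0.92 to 2.38. In the anthocyanin list 10 of 17 measured genes were below and 7 above the mean with a median of −0.12, or 0.05 against the same slide. EGL3, a regulator of pigment and hairs, was above all others at −3.02, against −6.09, −3.64 and −3.34, and its difference was 1.04 here and 0.72 with replaced backgrounds. Of 17 seed genes only 4 were measured, with a median of −0.52, which was 0.79 against the same slide, and of 12 root genes 4, with a median of −0.01.

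Across the genome the loci outside the others were spread over all 5 chromosomes. The share of loci below ranged from 1.19% on chromosome 5, without the stretches left out, to 2.12% on chromosome 2, and the share above from 0.557% on chromosome 4 to 0.774% on chromosome 3. Among the 314 loci below (1.7% of all), 55 had a measured neighbour by locus name that was also below, in 29 adjacent pairs. The 128 above (0.692% of all) held 3 such pairs. How many pairs these shares alone would give was not worked out, so the directions cannot be compared. Several pairs were related genes side by side, such as MSRB8 and MSRB9, GSTF6 and GSTF7, AOC2 and AOC3, BGL2 and BG3, or WRKY54 and WRKY55, whose probes may share transcripts.

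The genes whose level ran most like BGL2 over the 8 strains were AT5G22520 (Pearson's r 0.998), AT5G05300 (0.993), the receptor-like protein RLP23 (0.992), MAC5C (0.992) and AT3G63380 (0.991). Each was below all others in ExTQ003. BGL2 was itself lowest in ExTQ003, and that array entered the correlation. The low place of these genes in ExTQ003 thus follows largely from how they were picked. With replaced backgrounds their differences from the mean ran from −1.69 (RLP23) to −0.62 (MAC5C), against −3.43 and −1.01 for these genes here. These correlations rest on 8 arrays that share their strains, and ExTQ003 lay at the low end and ExTQ019 at the high end of each. TAT3 followed BGL2 at 0.964, and PDF1.2 at 0.339.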

How the data were processed

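Leaf RNA of 8 strains was hybridised to 1-colour Agilent arrays, 1 array per strain, 4 arrays on each of 2 slides. Intensity values come as the authors deposited them from the scanner software, Agilent Feature Extraction 11.0.1.1 per the file headers, already background-subtracted. The submitters' processing notes also name limma. A second, deposited table of series values is in log2, as judged from its correlation with each array's own log2 intensity. Its column medians run from 7.638 to 7.645, while centring and normalising step were not given in the sources.

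Spots with outlier flags were left out (34 of 37478 probes lost), spots of a probe were averaged, and log2 processed intensity was scaled by each array's 75th percentile. Of 26231 probes named by a locus, the brightest on average stood for each of 25638 measured loci, 541 of which had several probes. Symbols came from the TAIR10.1 reference gene table, where 18390 of 18489 loci were found. No coordinates are printed, since no genome build is named for the array design.

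The comparison of ExTQ003 with the 7 others used limma 3.58.1 under R 4.3.3, with lmFit, eBayes and Benjamini-Hochberg adjustment over 22376 loci. Calls needed an adjusted p below 0.05 and a difference of at least 1. The script was tested on simulated data. All other counts are descriptions, and precision is limited by 1 array per strain. The strain, the 28 gene lists and the rule for named genes were chosen with earlier results of these data known. Genes named come from the 12 largest gaps each way, up to 6 members per list by size of difference with BGL2 and PR5, the 5 smallest limma p, and the 5 loci most like BGL2. Other list members, families and neighbours are named as examples chosen after their values were seen.

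Alternatives were normexp background correction (offset 50), quantile normalization, the deposited series values, other filters, slide, probe choice and leaving out each other strain. The plan named the mean spot signal for normexp, but the files hold the median, which was used. An alternative added after seeing the data was normexp with the same offset, after local backgrounds over 2 times the array's median were replaced by that median.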

Additional observations from a re-analysis of the deposited data

Results flagged for a closer look

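Of 32 named loci and 28 list medians, 10 had an end strain whose gap to its nearest neighbour, divided by the range of all 8 strains, was above Dixon's 95% critical value for 8 samples. Chance alone gives about 1 such value in 20. In 6 of the 10 the strain that stood apart was ExTQ003, but these loci were named for their gaps or their small p, so they are not independent of the choice. The ratio was 0.782 for AT4G25210, which was lower, and 0.573 for AT1G33860, which read −6.95 in ExTQ003, against −5.95 to −5.21 in the others. The difference of AT1G33860 was −1.48 from the mean, but −0.18 with replaced backgrounds and −0.37 in the deposited series values. It was 0.564 for AT5G32161, 0.544 for AT3G43150, 0.548 for AT4G05640 and 0.567 for NEET, all higher in ExTQ003.

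The other 4 belong to other strains. ExTQ019 stood apart for the salicylic and pipecolic acid pathway list (ratio 0.535) and for ER chaperones and secretion (0.598), ExTQ016 for the seed list (0.573) and ExTQ002 for the mitosis list (0.617).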

How the results depend on the processing

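Limma called 0 loci under every alternative except 2. With normexp background correction 2473 were called, and with the deposited series values 1, AT1G12010 at −10.59 with a limma adjusted p of 0.0140. On the ExTQ003 array normexp fitted a background mean of −506 and SD of 409, against −1.87 to 2.65 and 0.865 to 1.51 on the other 7. That array has 9 spots with a local background over 2 times its median, up to 24771.5, where the highest on another array was 67. With these backgrounds replaced the fit gave 2.09 and 0.109 and 0 calls. AT1G12010 is read by such a spot, with a signal of 2000 and a local background of 22001.5, and its difference was −0.17 in the processed intensity. No locus among the 314 or the 128 is read by such a spot. The count below all others, 314, was 79 with normexp, 193 with replaced backgrounds, 208 with the deposited series values, 512 with loci above background on at least 1 array, 68 among loci above the median level and 923 against the same slide. The count above, 128, was 3291, 78, 64, 276 and 21 in the same order and 864 against the same slide, 296 with slide as a block, 80 against the median of the others. Of the loci that lay outside, 71% lay below, but 2.34% with normexp, 53.8% with slide as a block and 51.7% against the same slide. Leaving out each other strain gave 284 to 471 below, 87 to 224 above and 0 to 0 limma calls. The highest count above came without ExTQ005. The salicylic acid median ran from −2.53 to −1.67 on leaving out strains. It was −1.15 with normexp and −1.83 with replaced backgrounds, and kept its sign in all alternatives run. Under normexp 136 of 189 named genes kept their sign, against 188 with replaced backgrounds. Normexp also moved the median difference of all loci to 0.13, against 0.05. The sign turned under normexp for 8 list medians, cysteine-rich receptor kinases (0.11), pattern-triggered immunity (0.016), nitrate (−0.052), seed (1.48), root (0.17), photosynthesis (−0.11), anthocyanin (0.81) and heat shock (0.30). The named genes whose sign turned include these, all counted below all others in the main values: MDHAR (0.31), AT4G18250 (0.95), LAS1 (0.16), NAC058 (1.45), RAP2.6 (1.32), SARD1 (0.17), YLS9 (0.082), PROPEP3 (1.78), CRK5 (0.37), CRK36 (1.17), CYP71A12 (0.96), LOX4 (0.52), CYP94B3 (0.29), JAZ8 (1.57), NRT1.8 (0.47), HSP23.6-MITO (1.68), AT1G33860 (2.30), AT5G22520 (1.41), AT5G05300 (1.09), RLP23 (0.83), MAC5C (1.26) and AT3G63380 (1.28). Further named genes turned sign and are not listed. No paired analysis was possible because the 8 strains form 1 group with 1 array each. Of the 314 loci, 35 lay within 1 log2 unit of the lowest readable level, where signal over background limits the values.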

Other observations

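The families here were picked after their values were seen, so they carry no test, and some members also stand in the lists above. Of 39 measured glutathione S-transferase genes, detoxification enzymes that respond to stress, 8 were below all others and 0 above, beside 1.7% and 0.692% of all loci, with 30 lower and 9 higher than the mean and a median difference of −0.34. GSTF6 of the camalexin list is 1 of the 8. GSTU3 read −5.88 in ExTQ003, against a mean of −2.93 ± 1.83 (SD, n = 7), GSTF7 read −2.42, against 0.48 ± 1.63, and GSTU4 read −3.16, against −0.56 ± 1.35. GSTU19 and GSTF9, which were among the brightest members, differed by −0.17 and −0.25. Of 47 measured WRKY genes, 27 were lower and 20 higher than the mean, with a median of −0.26. Counted below all others were 9 and above 0, and 4 of the 9 (WRKY54, WRKY18, WRKY46 and WRKY60) belong to the salicylic acid list by which the strain was singled out.

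The growth-regulating factors, which promote leaf cell division, lay on the other side. All 9 measured were above the mean of the others, with a median difference of 0.52, and GRF5, GRF6 and GRF9 were above all others. Over all loci, 10501 of 18489 lay above the mean and 0.692% above all others. GRF5 read −0.83 in ExTQ003, against −3.47 in ExTQ002 and −1.57 in ExTQ018, the highest of the others. AN3, their coactivator, read 1.43 in ExTQ003, against −1.90 in ExTQ002 and 1.13 in ExTQ018. MAF4, a repressor of flowering, was below all others at −4.73 in ExTQ003, against −4.23 to −2.09.

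The array also holds 1352 probes for chromosome intervals, not loci, that were above background on all 8 arrays. By the same count 10 (0.74%) lay below all others in ExTQ003 and 18 (1.33%) above.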
